A study of Drosophila simulans with 22 samples.

Results

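Chromosome 4 of Drosophila simulans, known as the dot chromosome, carried 236 of the 25410 transcription start site clusters (TSCs) listed for the embryo. A TSC is a cluster of RNA 5′ ends found by RAMPAGE, a method that sequences cDNAs complete at their 5′ end, and it stands for a promoter. The members were all TSCs placed on chromosome 4 in the r1.4 genome, without the 37 TSCs of its unplaced scaffold, chr4_random. Of the 236, 146 were assigned to 51 annotated genes and 90 to no gene. The other placed chromosomes (X, 2L, 2R, 3L and 3R) held 22230 TSCs and serve as the comparison.

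The series followed whole embryos of the reference genome strain w[501] over 22 samples, each holding embryos laid within a single hour and aged, from 0-1 h to 21-22 h. Every hour had 1 sample and no replicate, and all samples were barcoded and sequenced as part of a single library. Hours were grouped into an early window (0-7 h, 7 samples), a middle window (7-15 h, 8 samples) and a late window (15-22 h, 7 samples). Neighbouring hours of a developmental series resemble each other and hours within a window are not replicates, so the p-values here measure the spread between hours and can be too small.

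Values are reads per 1000000 reads over all TSCs of a sample (RPM). Depth ranged between 322564 reads at 12-13 h, where 1 read was worth 3.10 RPM, and 17206157 reads at 9-10 h, where it was worth 0.0581 RPM. Intervals on reads and on shares of TSCs are 95% Wilson intervals, and those on reads cover counting error only. Intervals on shares and medians of TSCs treat each TSC as independent. TSCs of the same gene are not, so these intervals can be too narrow and serve as description, not as a test between chromosomes. The annotation gives the genes as FlyBase numbers that could not be tied to names here, so marker genes of embryonic tissues were not checked, and TSCs are given by number, position on r1.4 counted from 1, and strand.

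The dot chromosome, Muller element F, is the smallest chromosome of these flies. In D. melanogaster it is known for an unusual chromatin state: it is rich in repeats, recombines little and is bound by the heterochromatin protein HP1, yet its distal arm carries active genes. Many of those genes are bound in D. melanogaster by POF, a protein that targets this chromosome. RAMPAGE does not measure chromatin, and the data below describe where RNAs started on this chromosome and when.

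The members lay between positions 38737 and 943032, a stretch of 904 kb, at 26.1 TSCs per 100 kb. The other placed chromosomes had between 17.5 and 23.9 TSCs per 100 kb. Genes with a TSC were sparser on chromosome 4 than elsewhere, at 5.64 per 100 kb, against 6.72 to 10.0 on the others. Chromosome 4 genes had more TSCs each, 2.86 on average, against 1.86 on the other placed chromosomes. At least 4 TSCs were found for 15 of the 51 genes (29.4%), against 10.4% of the 9271 genes elsewhere. In the 34 chromosome 4 genes with several TSCs the strongest took a median of 91.6% of the gene's summed mean RPM. For 3 genes the listed TSCs were over 100 kb apart, with 529201 bp for FBgn0195732, 313465 bp for FBgn0195757 and 153272 bp for FBgn0195752, and these values depend on how TSCs were assigned to genes. Positions 209212-209258 and 552169-552268 were each listed under 2 genes with equal reads, so that the 236 entries stand for 234 distinct positions, and 966 of the chromosome's 635939 reads were counted 2 times.

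TSCs with no gene were common on chromosome 4. They made up 38.1% of its TSCs, against 22.5% on the other placed chromosomes, where X was highest at 28.5%. Over all TSCs listed, scaffolds included, the share was 31.6%. Among TSCs that reached 2 RPM in some hour the share was 36.5% (66 of 181, interval 29.8% to 43.7%), against 17.7% of 17747 elsewhere. Weaker TSCs lack a gene more often, so the comparison was repeated in 5 strata of mean RPM set on the chromosome 4 TSCs. Weighted to those strata, the other placed chromosomes reached 20.4%. The gap was widest in the middle stratum, between 1.31 and 3.21 RPM, where 18 of 37 chromosome 4 TSCs (48.6%) had no gene, against 19.7% elsewhere. In the top stratum, above 19.4 RPM, it was 16.2% against 6.84%. Of the 90 unassigned TSCs, 29 (32.2%) lay within 1 kb of a gene-assigned TSC, against 30.2% to 37.7% on the other placed chromosomes. Of the 29, 19 lay on the opposite strand. The opposite strand also held most of those within 1 kb elsewhere: 163 of 281 on X, 164 of 273 on 2L, 226 of 380 on 2R, 180 of 305 on 3L and 266 of 470 on 3R. On chromosome 4 the median gap was 3243 bp, against medians between 1681 and 2755 bp on the others. How far gene annotation is complete on chromosome 4 was not tested.

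The picture for width and spread over time depended on the strata. The median chromosome 4 TSC with at least 2 RPM was 60 bp wide (95% rank interval 44 to 80), against 63 bp on the other placed chromosomes and 44 bp with strata weights. Chromosome 4 TSCs were narrower in the lowest stratum, at 12 bp against 13 bp, and in the next, at 19 bp against 22 bp. They were wider in the top stratum, at 170 bp against 112 bp. The Shannon entropy of a TSC over hours, which is high when RNA is spread evenly over the 22 samples, had a median of 2.50 nats (95% rank interval 2.43 to 2.58), against 2.51 elsewhere and 2.41 with strata weights. The chromosome 4 median was the higher in all 5 strata, most in the lowest, at 1.92 against 1.81, and least in the one below the top, at 2.67 against 2.66. Among TSCs with at least 10 RPM the difference from the weighted median was 6.83e-05.

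**Figure D1:**
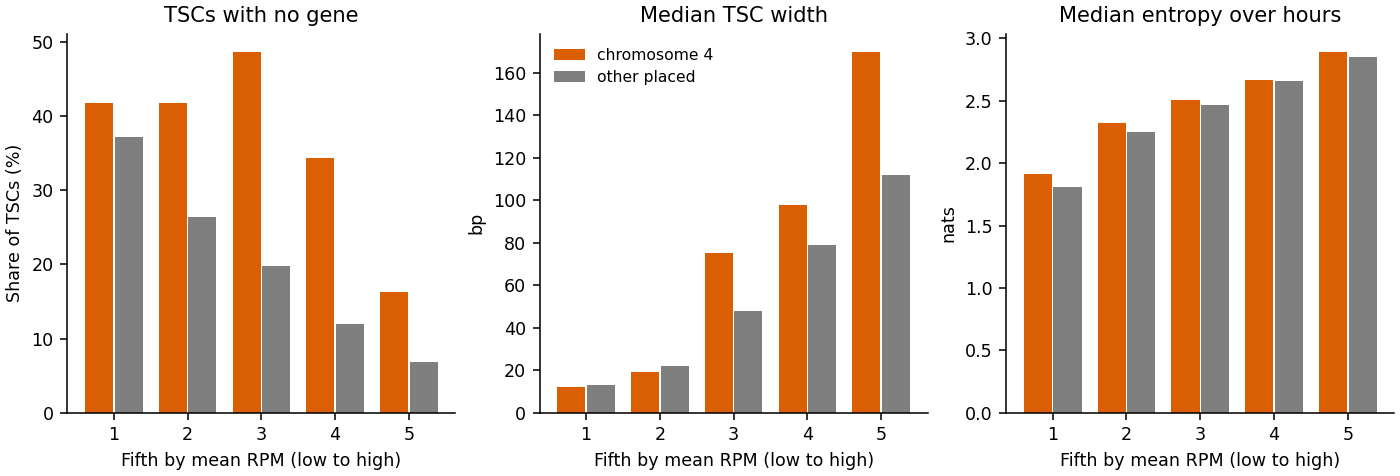
Share of TSCs with no gene (%), median width (bp) and median entropy (nats) in 5 strata of mean RPM, for the 181 chromosome 4 TSCs (orange) and the 17747 TSCs of the other placed chromosomes (grey) that reached 2 RPM. The orange bar for TSCs with no gene is higher in every stratum, most in the middle one (48.6% against 19.7%), and the widths differ most in the top stratum (170 bp against 112 bp).

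Few TSCs supplied most RNA starts of the chromosome. The strongest took 13.9% of its summed mean RPM, the 5 strongest 40.2%, the 10 strongest 59.7% and the 20 strongest 79.3%. By position, the bin from 800001 to 900000 held the largest sum, 1059 RPM in 34 TSCs, and the bin from 1 to 100000 the smallest, 78.4 RPM in 4 TSCs, none with a gene.

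The strongest member, RAMPAGEpeak_001162, had no gene. It lay on the minus strand at chr4:730058-730730 and was 673 bp wide. Its RPM had a lowest, median and highest value of 410, 971 and 1056 in the early hours, 337, 822 and 1501 in the middle hours and 383, 692 and 995 in the late hours. The windows overlapped throughout, with no called change over hours (limma, adjusted p = 0.073), although splines with 3 and 5 df gave adjusted p = 0.044 and 0.031. The highest hour was 8-9 h, where 22149 reads gave an interval of 1481 to 1520 RPM. The nearest gene-assigned TSC, FBgn0195752_11, started 1372 bp away on the opposite strand.

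RAMPAGEpeak_001162 made up a large part of the unassigned signal. Unassigned TSCs took between 14.5% and 30.7% of chromosome 4 reads per hour, against 3.67% to 6.22% of the reads of the other placed chromosomes. Without RAMPAGEpeak_001162 the range was 7.04% to 12.6%, still above every hour elsewhere. The next strongest unassigned TSCs were RAMPAGEpeak_001010 (chr4:109864-109955, plus strand), with a mean of 97.4 RPM, and RAMPAGEpeak_001119 (chr4:81169-81314, minus strand), with 77.6 RPM. RAMPAGEpeak_001010 had 32.4 to 84.8 RPM late against 81.2 to 143 RPM early, a log2 difference of -1.06 (limma, adjusted p = 0.00099) that was not called with TMM factors, which rescale for a few TSCs taking many reads (-0.57, adjusted p = 0.070). RAMPAGEpeak_001119 had 3 high hours at the start, 148 to 176 RPM between 0 and 3 h, and lay between 29.2 and 37.3 RPM in the other early hours. A spline of hour was called for it (limma, adjusted p = 1.8e-05), while its late and early means were not called different (adjusted p = 0.75).

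The whole chromosome took 0.330% to 0.776% of a sample's TSC reads. Its share had a lowest, median and highest value of 0.467%, 0.601% and 0.657% in the early hours, 0.596%, 0.650% and 0.776% in the middle hours and 0.330%, 0.456% and 0.495% in the late hours. The late hours were low: a single early hour, 1-2 h, fell within their range, and no middle hour did. In RNA of whole embryos, fewer cells of a type and less RNA per cell cannot be told apart.

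The mean share was 0.673% in the middle hours, against 0.582% in the early hours, a ratio of 1.16 (adjusted p = 0.013, exact permutation test, two-sided, adjusted over 3 pairs of windows). The late mean was 0.443%, lower than the middle mean by a ratio of 0.658 (adjusted p = 0.00047, exact permutation test) and lower than the early mean by a ratio of 0.760 (adjusted p = 0.0026, exact permutation test). Over all 22 hours the share fell with time, with r = -0.488 (p = 0.0212, permutation test) and rho = -0.482 (p = 0.0243), neither altered by adjustment over the 6 placed chromosomes. Without 0-1 h and 21-22 h, the hours farthest from the middle, r was -0.445 (p = 0.0482, permutation test). A straight line described the course poorly, since r was 0.629 over the first 11 hours (p = 0.0346, permutation test, with a p of 0.0564 for rho) and -0.750 over the last 11 (p = 0.00777, permutation test, with a p of 0.0326 for rho). A lower late share was not particular to chromosome 4. The ratio of late to early means was 0.597 on X, 0.597 on 2L and 0.697 on 3R, below that of chromosome 4. It was 1.24 on 2R and 1.93 on 3L. Over all 22 hours r was -0.896, -0.872 and -0.838 on X, 2L and 3R, and 0.741 and 0.864 on 2R and 3L.

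The middle-to-early and late-to-early differences both shrank when certain strong TSCs were left out. Between the middle and early means 152 members gained 2401 RPM in sum and 84 changed by -1492 RPM, a net gain of 909 RPM, and the largest single gain was 823 RPM for FBgn0195754_03. Without that TSC, a setting chosen after seeing the data, the ratio of middle to early was 1.01. Its gain was close to the net gain, so a small remaining difference followed from the choice of TSC. The lower late share went along with a few TSCs on other chromosomes that took many reads. The 10 strongest TSCs of a sample, none of them on chromosome 4, took 24.4% to 39.6% of reads in the late hours, against 8.42% to 13.0% in the early hours. With those 10 left out of each sample, the late share averaged 0.662% and the early share 0.654%, a ratio of 1.01 (adjusted p = 0.84, exact permutation test), r with hour was 0.069 (p = 0.758, permutation test), and the ratio of late to middle was 0.861 (adjusted p = 0.012, exact permutation test).

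**Figure D2:**
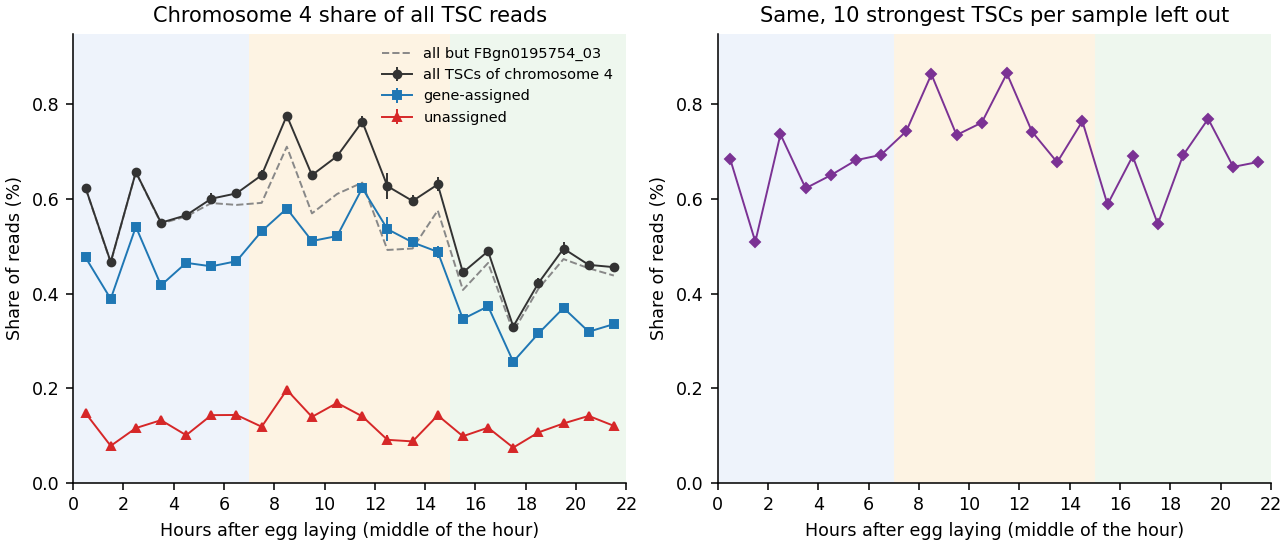
Share of a sample's TSC reads (%) on chromosome 4 against hours after egg laying, for all members, gene-assigned members, unassigned members (bars: 95% Wilson intervals) and all members but FBgn0195754_03 (left), and with each sample's 10 strongest TSCs left out (right). Shading marks the early, middle and late windows. The full share peaks at 0.776% at 8-9 h and is lowest, 0.330%, at 17-18 h, and on the right the late hours average 0.662% and the early hours 0.654%.

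Gene-assigned members held most of these reads. Their share averaged 0.459% early, 0.538% in the middle hours and 0.331% late, and all 3 pairs of windows differed (adjusted p between 0.00047 and 0.0044, exact permutation test). Without FBgn0195754_03, again a setting chosen after seeing the data for the TSC with the largest gain, their share was 0.450% in the middle hours. It was 0.454% in the early hours, a ratio of 0.991, while both late pairs were still called. The unassigned share averaged 0.123% early, 0.136% in the middle hours and 0.112% late, and no pair was called (adjusted p = 0.46 for each, exact permutation test). Without RAMPAGEpeak_001162 it was higher in the middle hours, at 0.0513% against 0.0390% in the early hours, a ratio of 1.31 (adjusted p = 0.0042, exact permutation test). Whether the gene-assigned and unassigned shares differ in course was not tested.

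Most members changed over time. A smooth change over hours was called for 137 of 181 members tested (75.7%, interval 68.9% to 81.4%), against a background of 82.1% of all TSCs tested. The 181 passed a filter of at least 2 RPM in some hour, which 55 members did not. At an unadjusted p of at most 0.05 the count was 140. Other placed chromosomes reached 82.7%, or 79.0% with strata weights.

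Of the 181, 50 were higher in the late than the early hours and 47 lower, in limma fits of log2(RPM + 1), the scale of all log2 differences here. The background was 24.2% higher and 35.4% lower over all TSCs, and the chromosome 4 shares were 27.6% and 26.0%. For lower TSCs the interval on chromosome 4 was 20.1% to 32.8%, against 35.4% on the other placed chromosomes and 32.5% with strata weights. The median log2 difference between late and early hours was 0.05 for chromosome 4, against -0.30 for the other placed chromosomes and -0.31 for all TSCs tested. The balance depended on scaling. With TMM factors the median was 0.25 for chromosome 4 and -0.07 for all TSCs, and 59 members were higher (32.8% of 180) and 36 lower (20.0%), against 28.6% of all TSCs in either direction. DESeq2 called 68 higher (37.6%) and 26 lower (14.4%), against 33.6% and 23.4% of all TSCs. All 50 higher members were also called with TMM factors and with edgeR on the recovered reads, while 35 and 33 of the 47 lower members were.

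For the middle hours against the mean of late and early hours, 31 members were higher and 2 lower, with backgrounds of 18.9% and 3.18%. Of the 31, 25 were among the 115 gene-assigned members tested and 6 among the 66 unassigned ones. The shares of each kind over all TSCs were not computed, so no difference between the kinds is read from these counts. With TMM factors 15 of the 31 were called, and the median over all TSCs was -0.03, against 0.24 without them. For lower members, the count at an unadjusted p of at most 0.05 was 11, and edgeR called 3 (1.66%), against 3.18% of all TSCs.

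**Figure D3:**
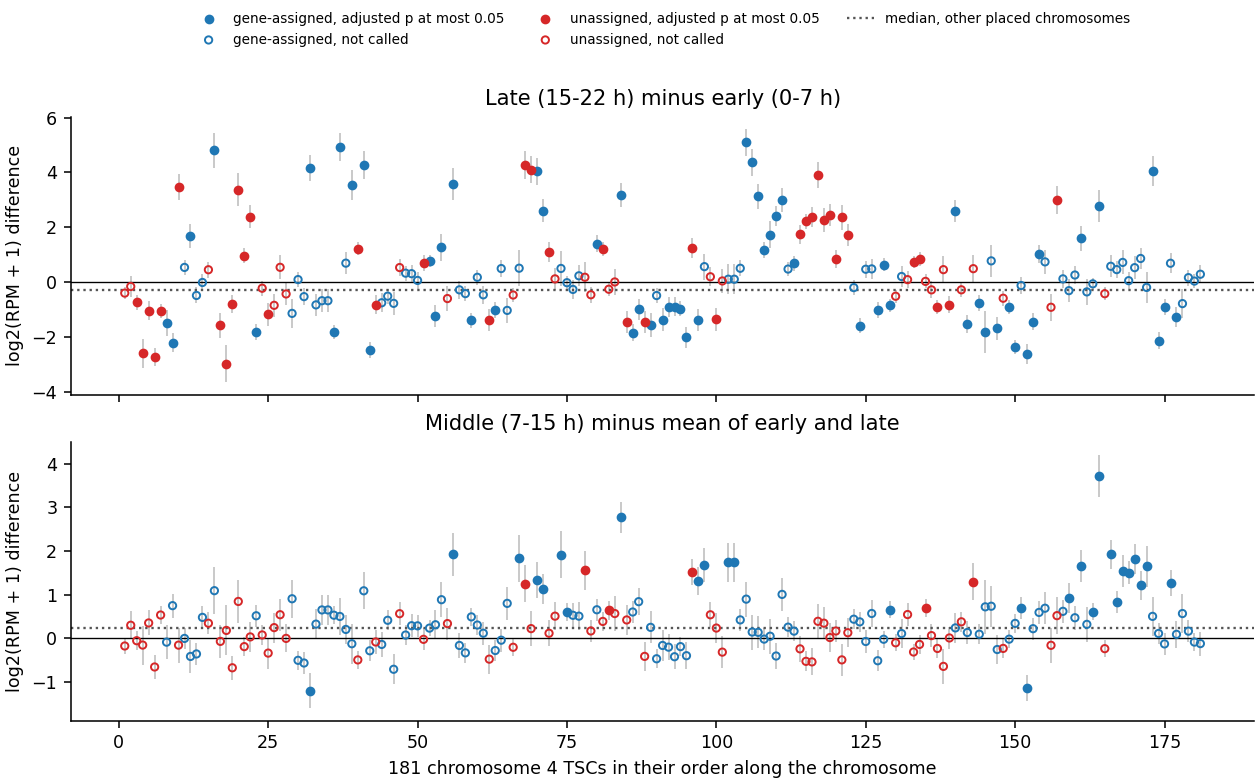
Difference in log2(RPM + 1) between late and early hours (top) and between middle hours and the mean of the others (bottom) for the 181 tested chromosome 4 TSCs, in their order along the chromosome, with standard errors as bars. Filled points have an adjusted p of at most 0.05, blue TSCs have a gene, red TSCs have none, and the dotted line is the median of the other placed chromosomes. Higher and lower TSCs lie interspersed along the chromosome, apart from runs such as the late-high stretch around the TSCs of FBgn0195752, most of which passed the filter through later hours alone.

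The largest increase between the late and early hours was that of FBgn0195752_01 (chr4:578910-579037, plus strand). It had 387 to 445 RPM in the late hours, with a median of 423, against 5.66 to 17.6 RPM in the early hours, with a median of 13.4. All late hours lay above all early ones, with the middle hours spread between and above them, up to 527 RPM at 14-15 h. The log2 difference was 5.09 ± 0.48 (SE, limma, adjusted p = 2.9e-09). FBgn0195740_01 (chr4:219749-220065, plus strand) followed, with 183 to 376 RPM late against 4.36 to 17.4 RPM early and a log2 difference of 4.93 ± 0.51 (adjusted p = 1.0e-08). FBgn0195732_02 (chr4:162943-163202, minus strand) had 67.1 to 187 RPM late against 2.12 to 6.23 RPM early, a difference of 4.81, and was highest at 14-15 h with 323 RPM. The unassigned RAMPAGEpeak_001095 (chr4:391114-391248, minus strand) had 28.9 to 45.4 RPM late against 0 to 4.44 RPM early, a difference of 4.28. In these 4 the late hours did not overlap the early ones, while middle hours reached into the late range.

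FBgn0195752 was the gene with the most TSCs, 11, of which 10 passed the filter. Their log2 differences between late and early hours ran from 0.48 for FBgn0195752_09 to 5.09, as a description, since 7 of the 10 stayed under 2 RPM in every early hour and passed only through later hours. FBgn0195752_01 supplied 79.4% of the gene's summed mean RPM, and FBgn0195752_02 (chr4:579828-579954) had 22.9 to 42.5 RPM late against 0.21 to 1.78 RPM early. FBgn0195752_11 lay apart at chr4:732102-732181 and had 8.56 to 22.1 RPM late against 0.82 to 3.14 RPM early.

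Beyond FBgn0195752_10 the plus strand carried a run of 12 unassigned TSCs between positions 590608 and 614427, a stretch of 23.8 kb with no TSC on the minus strand. All were weak, with mean RPM between 0.22 and 8.37, and none exceeded 1.27 RPM in an early hour. The 9 that passed the filter did so through middle or late hours alone, so that a higher late value was largely set by the filter, and their log2 differences of 0.84 to 3.91 are given as a description. The other 3 reached at most 1.76 RPM in any hour. Over the 22 hours the log2 values of the 9 that passed correlated with FBgn0195752_01 at r between 0.63 and 0.95 (median 0.81, across hours of the same samples, as a description). The run was chosen after its values were seen, and whether its RNAs belong to the gene was not tested.

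The largest loss of RPM between the late and early means was that of FBgn0069498_01 (chr4:268380-268512, plus strand), the second strongest on the chromosome. It had 72.8 to 197 RPM in the late hours, with a median of 166, against 511 to 1433 RPM in the early hours, with a median of 756. The late hours all lay below the early ones, with a log2 difference of -2.48 ± 0.29 (SE, limma, adjusted p = 4.5e-08). On the opposite strand, FBgn0195727_01 (chr4:267536-267631), chosen for its position beside FBgn0069498_01 after its values were seen, took the other course. It had 8.78 to 47.5 RPM late against 0.55 to 1.05 RPM early. The log2 difference of 4.27 is given as a description, since it stayed under 2 RPM in every early hour and passed the filter only through later hours.

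FBgn0195709_01 (chr4:807638-807764, minus strand) was an early TSC of medium strength. It had 4.10 to 15.1 RPM late against 19.4 to 116 RPM early, a log2 difference of -2.63 ± 0.35 (limma, adjusted p = 5.2e-07), and it was also lower in the middle hours than in the mean of the others, by -1.14 (adjusted p = 0.0064). The other large decreases were in weak unassigned TSCs that were highest at 5-6 h. Each stayed under 2 RPM in every late hour and passed the filter only through earlier hours, so that a lower late value was largely set by the filter. RAMPAGEpeak_001115 (chr4:172801-172959, minus strand) reached 43.1 RPM at 5-6 h and had at most 0.86 RPM late. Its log2 difference of -2.97 is given as a description. RAMPAGEpeak_000983 (chr4:107678-107759, plus strand) and RAMPAGEpeak_001105 (chr4:108775-108840, minus strand) reached 19.0 and 10.8 RPM at 5-6 h and at most 0.35 and 0.10 RPM late. RAMPAGEpeak_001010, described above, started next to them at position 109864.

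FBgn0195715, with 9 TSCs between positions 518131 and 526833, was the gene with the next most TSCs after FBgn0195752. All 7 that passed the filter reached 2 RPM in an early hour, and 2 of them did not in a late hour. The log2 differences of the 7 between late and early hours ran from -2.01 to -0.49, as a description, since for those 2 a lower late value was largely set by the filter. Of the 7, 6 were called lower late than early and 0 higher, against 35.4% of all TSCs called lower. The 6 include FBgn0195715_02, whose lower late value was largely set by the filter. TSCs of the same gene are not independent, so the count is a description. FBgn0195715_01 (chr4:526583-526833, minus strand), which took 71.8% of the gene's signal, had 5.68 to 23.2 RPM late against 40.6 to 129 RPM early (limma, adjusted p = 5.8e-05). With TMM factors 4 of the gene's TSCs were called, FBgn0195715_02 among them, against 28.6% of all TSCs called lower.

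Middle hours were marked above all by FBgn0195754_03 (chr4:835679-835980, plus strand), the third strongest member. Its RPM had a lowest, median and highest value of 3.98, 17.4 and 244 in the early hours, 550, 804 and 1349 in the middle hours and 73.0, 177 and 370 in the late hours. The middle hours did not overlap the others. Its log2 difference from the mean of early and late hours was 3.72 (limma, adjusted p = 4.1e-06), and its highest hour, 12-13 h, was the shallowest sample, where 435 reads gave an interval of 1228 to 1481 RPM. The neighbouring hour 11-12 h stood at 1290 RPM. FBgn0195754_04 (chr4:837882-837953), a weak TSC of the same gene, was also higher in the middle hours, with at most 13.1 RPM and a difference of 1.92 (adjusted p = 0.00012).

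FBgn0195717_01 (chr4:487096-487368, minus strand) had 77.5 to 168 RPM in the middle hours, against 27.6 to 76.2 RPM late and 0.63 to 29.1 RPM early, a difference of 2.77 (limma, adjusted p = 4.7e-06). FBgn0195724_02 (chr4:323379-323442, minus strand) was highest at 11-12 h with 81.7 RPM, a difference of 1.93 (adjusted p = 0.0058). FBgn0195744_01 (chr4:409816-410013, plus strand) was lowest at 0-1 h, with 5.27 RPM, and highest at 8-9 h, with 497 RPM. Its middle hours had a median of 399 RPM, against 110 late and 139 early, a difference of 1.92 (adjusted p = 0.012) that was not called with TMM factors (1.46, adjusted p = 0.071). Both members lower in the middle hours than in the mean of early and late hours have a gene, and in neither was the middle mean the lowest. FBgn0195709_01 averaged 71.9 RPM early, 11.1 in the middle hours and 10.1 late. FBgn0195730_02 (chr4:199577-199619, minus strand) averaged 0.58 RPM early, 2.21 in the middle hours and 33.2 late. It had at most 5.90 RPM before 15 h and 5.81 to 62.1 RPM late. The call for FBgn0195730_02 (-1.20, limma, adjusted p = 0.030) was lost without 11-12 h (adjusted p = 0.071), without 12-13 h (0.069) and with edgeR (0.11).

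The remaining members among the 10 strongest were gene-assigned. FBgn0195747_01 (chr4:490315-490454, plus strand) had 97.2 to 191 RPM late against 319 to 733 RPM early, a log2 difference of -1.84. FBgn0067492_02 (chr4:914872-915118, minus strand) had 55.2 to 135 RPM late against 283 to 638 RPM early, a difference of -2.14, and FBgn0195714_01 (chr4:629081-629167, minus strand) 50.5 to 147 RPM late against 173 to 446 RPM early, a difference of -1.59. The late and early hours of these 3 did not overlap. FBgn0022517_02 (chr4:810171-810252, plus strand) was higher late, by 1.03 (limma, adjusted p = 0.0083), with overlapping windows and its highest values, 632 and 656 RPM, at 12-13 h and 13-14 h.

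**Figure D4:**
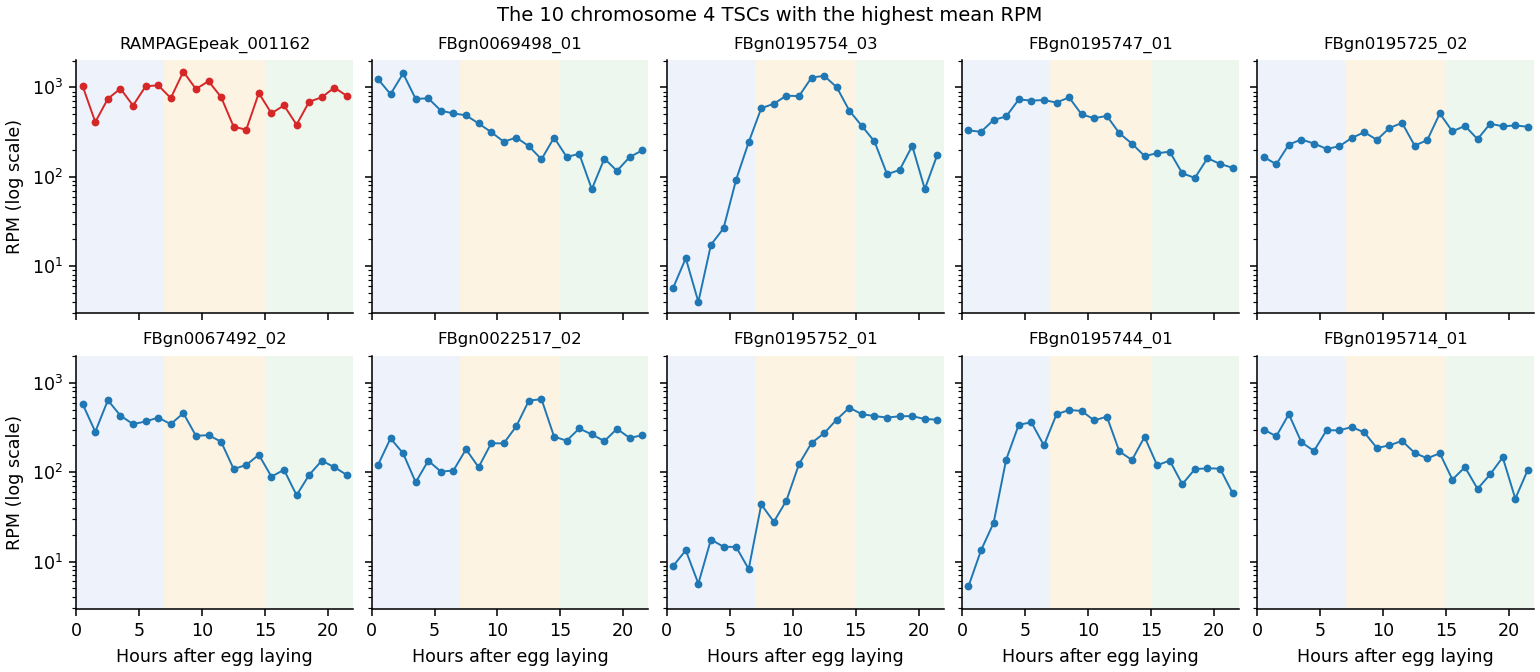
RPM on a log scale against hours after egg laying for the 10 chromosome 4 TSCs with the highest mean RPM, with early, middle and late windows shaded and the unassigned TSC in red. RAMPAGEpeak_001162 stays between 337 and 1501 RPM, FBgn0069498_01 is highest at 2-3 h with 1433 RPM and lowest at 17-18 h with 72.8 RPM, FBgn0195754_03 peaks in the middle hours at 1349 RPM and FBgn0195752_01 levels off in the late hours near 423 RPM.

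Of the 236 members, 79 reached at least 10 RPM in some hour, a threshold that falls between FBgn0195756_02 at 10.6 RPM and FBgn0195730_05 at 9.99978 RPM. That is 33.5% of the chromosome's TSCs, against 46.2% on the other placed chromosomes. Among the 79, 5 were housekeeping, which means a highest value under 5 times the lowest. This was 6.33%, against a background of 5.52% of all such TSCs. A further 56 were regulated, with at least 60% of their summed RPM within 8 consecutive hours, or 70.9% (interval 60.1% to 79.7%), against a background of 61.9% and a strata-weighted 62.1% on the other placed chromosomes. The excess of regulated members depended on scaling, since TMM factors gave 46 of 77 (59.7%), against 59.5% of all such TSCs. Size factors of DESeq2 gave 10 housekeeping members (12.3%), against 10.4% of all such TSCs, and thinning all samples to the shallowest gave 1 (1.23%), against 2.83%.

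The steadiest was FBgn0195725_02 (chr4:303133-303256, minus strand), between 138 and 512 RPM with a ratio of 3.70. Its late hours nonetheless exceeded its early ones, at 264 to 392 RPM against 138 to 261 RPM, a log2 difference of 0.77 ± 0.22 (limma, adjusted p = 0.0043). FBgn0195712_01 (chr4:690594-690862, minus strand) varied between 23.7 and 95.9 RPM with a ratio of 4.04, and FBgn0195741_01 (chr4:277880-278174, plus strand) between 24.5 and 100.4 RPM with a ratio of 4.09. The other 2 were the unassigned RAMPAGEpeak_001162 (4.45) and RAMPAGEpeak_001010 (4.98), which was just inside the limit, with RAMPAGEpeak_001037 (5.13) just outside. On chromosome 4, 2 of 22 unassigned TSCs with at least 10 RPM were housekeeping, against 1.71% of 1051 on the other placed chromosomes.

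The 79 were spread over development. Their highest hour fell in the early window for 27 (34.2%), in the middle window for 39 (49.4%) and in the late window for 13 (16.5%). On the other placed chromosomes the shares were 47.7%, 34.9% and 17.4%. No member was highest at 1-2 h, while 11.0% of TSCs elsewhere were, and 11 members (13.9%) were highest at 2-3 h, against 8.28% elsewhere. At 14-15 h it was 10 members (12.7%), against 3.47%, and at 5-6 h 8 members (10.1%), against 3.44%. The shallowest sample, 12-13 h, where 3 reads equal 9.30 RPM, was the highest hour of 7 members (8.86%), against 7.73% elsewhere.

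**Figure D5:**
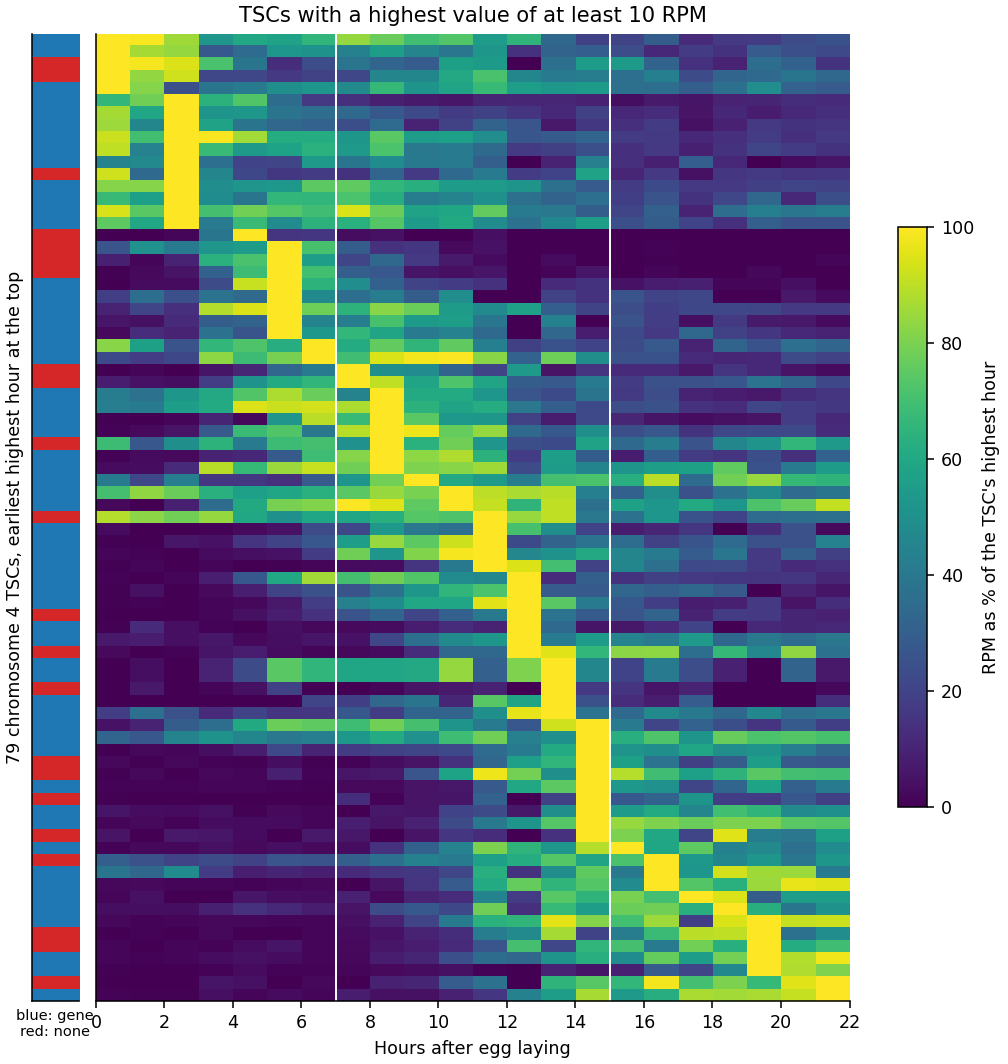
RPM of the 79 chromosome 4 TSCs that reached at least 10 RPM, as a percentage of each TSC's highest hour, against hours after egg laying, ordered by highest hour with the earliest at the top. White lines mark 7 h and 15 h, and the side strip shows gene-assigned (blue) and unassigned (red) TSCs. Highest hours run from 0-1 h to 21-22 h, with 27 TSCs highest early, 39 in the middle and 13 late.

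Neighbours and TSCs of the same gene had related courses. As a description over 22 hours, the 77 pairs of adjacent members with at least 10 RPM had a median r of 0.43 on the log2 scale, against medians of 0.32 to 0.39 on the other placed chromosomes. All 3081 pairs of such members had a median r of 0.14, against 0.07 to 0.12. Pairs within a gene, 28 in 10 genes, had a median r of 0.79 and 2 negative values, against a median of 0.62 for 2756 pairs elsewhere, of which 468 were negative. These pairs share libraries and depth, and several come from the same few genes.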

How the data were processed

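RAMPAGE was run on 22 hourly samples of D. simulans embryos. Per the study's methods, samples were barcoded at reverse transcription, pooled and sequenced as a single library. The authors mapped reads with STAR to FlyBase r1.4, called TSCs on the pooled reads of all hours and removed peaks over annotated rDNA. They deposited RPM per TSC and sample. All RPM values were whole multiples of 1 read (100% within 0.1), which gave the reads. The score in the deposited TSC list has no stated meaning and was not analysed, and the gene tables, whose gene numbers could not be tied to chromosome 4, were not used here.

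Chromosome 4 TSCs, their lists and the tests were chosen with earlier results of these data known. limma 3.58.1 (trend) was fitted to log2(RPM + 1) of all 20118 TSCs with at least 2 RPM in some hour, with a natural spline of hour (4 df) or window means. The threshold was 0.05 after Benjamini-Hochberg adjustment over all of them. Count tools (edgeR 4.0.16, DESeq2 1.42.0, on recovered reads) were alternatives, and edgeR called 16729 smooth changes, against 16524 with limma. Fold changes on this scale understate weak TSCs. Shares were compared by permutation tests. Comparisons with other chromosomes used strata of mean RPM and no test. Scripts were tested on simulated data.

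Named TSCs were the 10 strongest, the 5 largest late increases and decreases, the 5 largest middle increases and up to 3 decreases, the 3 strongest unassigned, the 3 steadiest housekeeping TSCs and the TSCs of the 2 genes with most.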

Additional observations from a re-analysis of the deposited data

Results flagged for a closer look

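FBgn0195754_03 had 244 RPM at 6-7 h, far from the other early hours, the next of which stood at 92.6 RPM at 5-6 h. It was the only value past Dixon's limit among 39 groups of hours examined for the chromosome 4 shares and the 10 strongest TSCs, and chance flags about 1 in 20. The hours of a window are an ordered series and not replicates, and the TSC climbed through these hours.

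The unplaced scaffold chr4_random, which no comparison used, held 37 TSCs and took up to 0.0371% of reads at 19-20 h and as little as 0.0117%. That is above the limit of 3 reads in every sample. Its mean share was 0.0301% in the middle hours, against 0.0164% in the early hours, a ratio of 1.84 (adjusted p = 0.00047, exact permutation test). The late mean was 0.0268%, a ratio of 1.64 to the early mean (adjusted p = 0.0070, exact permutation test), where chromosome 4 had 0.760, and a ratio of 0.889 to the middle mean (adjusted p = 0.24, exact permutation test).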

How the results depend on the processing

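Without the 10 strongest TSCs of each sample, the share's relation with hour turned to r = 0.069 and the ratio of late to early to 1.01. Without FBgn0195754_03, the ratio of middle to early was 1.01, and 0.991 over gene-assigned members. A filter of 10 RPM, which tests fewer TSCs, called smooth changes for 77 of 79 members, against 10748 of all 11405 TSCs tested. It called 32 of the 79 higher and 26 lower late than early, against 3089 and 5089 of the 11405. DESeq2 called 68 higher (37.6%) and 26 lower (14.4%) late than early, against 33.6% and 23.4% of all TSCs. The count higher in the middle hours was 15 with TMM factors (8.33%, against 9.89% of all TSCs) and 19 with DESeq2 (10.5%, against 12.2%). The count lower there was 4 with TMM factors (2.22%, against 6.58% of all TSCs) and 6 with DESeq2 (3.31%, against 5.52%). With pseudocounts of 0.5 and 5 RPM it was 1 and 4, against 567 and 769 of all 20118 TSCs. It was 1 without 11-12 h or 12-13 h, 4 without 15-16 h and 5 without 14-15 h. Over all TSCs those settings called 418 of 19854, 443 of 19670, 776 of 20070 and 846 of 19984. Housekeeping members numbered 10 with DESeq2 size factors (12.3%, against 10.4% of all such TSCs) and 1 after thinning (1.23%, against 2.83%). Regulated members numbered 33 of 52 at 25 RPM (63.5%, against 58.2%). Entropy differed from other placed chromosomes by -0.00782 and width by -3 bp without strata, and entropy by 6.83e-05 at 10 RPM. For FBgn0195712_01 the late minus early difference was 0.0444 with DESeq2, against -0.85. edgeR on the recovered reads called 63 members higher (34.8%) and 36 lower (19.9%) late than early, against 31.5% and 28.5% of all TSCs. The cause of these shifts was not tested.

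Leaving out each hour in turn kept r between -0.600 and -0.445, the ratios between 1.12 and 1.18 (middle to early), 0.645 and 0.685 (late to middle) and 0.736 and 0.792 (late to early), smooth changes between 127 and 139, late counts between 48 and 50 higher and 43 and 49 lower, middle counts between 24 and 35 higher and 1 and 5 lower, housekeeping members between 5 and 6, regulated members between 54 and 59, and the differences in entropy, width and unassigned share between 0.0750 and 0.112, 15 and 18 bp and 15.6 and 17.0 points. No paired analysis was possible because each hour has 1 sample. Depth limits weak TSCs most at 12-13 h, where 3 reads equal 9.30 RPM.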
